A study of Mus musculus with 6 samples.

Results

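The genes described here are 50 that act in mitosis, the spindle and the kinetochore. They were chosen by symbol from the 26214 genes listed in the count files, and all 50 were found and passed the filter on low counts. RNA-seq was done on immortalized primary mouse brown preadipocytes that had been differentiated in culture to brown adipocytes, the heat-producing kind of fat cell. Differentiated cells of day 7 were given either DMSO, the solvent, or rotenone at 100 nM for 16 h. Rotenone blocks complex I, the NADH dehydrogenase of the respiratory chain. All cultures had been grown to confluence and differentiated with insulin, triiodothyronine, IBMX, dexamethasone and indomethacin, with insulin and triiodothyronine alone in the last days. The labels used here do not say how the cells were immortalized or whether they are 1 clone. The 3 deposited rotenone files hold identical counts, so they differed by less than the sampling noise and were counted as 1 sample. The comparison is thus between 3 DMSO libraries, with 26085061 to 29194179 counts, and 1 rotenone library, with 21611589 counts.

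Cells enter mitosis when the kinase CDK1, bound to cyclin A or B, is activated. Aurora and Polo kinases then organize the spindle, kinetochores link chromosomes to microtubules, and a checkpoint holds back the anaphase-promoting complex until every kinetochore is attached. Most of these genes are transcribed late in the cell cycle and are low in resting and in fully differentiated cells, fat cells among them. Rotenone is known as an inhibitor of microtubule assembly as well as of complex I. With rotenone as the single agent, actions on complex I and on microtubules cannot be told apart.

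The cultures carried fat cell transcripts. Adiponectin (Adipoq) stood at 1264, 1113 and 1111 CPM against 863 CPM with rotenone, and Ucp1, the uncoupling protein of brown fat, at 74.3, 72.7 and 54.7 CPM against 18.5 CPM. Dio2, the deiodinase of brown fat, had 0 counts in DMSO replicate 3 and with rotenone, and at most 0.236 CPM elsewhere. CPM are the counts of a gene relative to the total of its library, scaled by the TMM method. Here and in what follows, the 3 values before "against" are DMSO replicates 1, 2 and 3, in that order, and the value after it is the rotenone library.

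Mitotic transcripts were mostly higher with rotenone. Of the 50 genes, 38 rose, 1 fell and 11 did not pass the test (edgeR's quasi-likelihood test, Benjamini-Hochberg adjusted p under 0.05 over all 14709 genes tested). Of all genes tested, 27.6% rose and 28.5% fell, together 56.1%. DESeq2 also called 38 of the 50 higher and 1 lower, against 24.9% and 24.2% of all genes, together 49.1%. The median log2 fold change was 0.61 for the 50 genes and -0.04 for all genes tested. Summed over the 50 genes, the level was 2250, 2160 and 2185 CPM in DMSO replicates 1, 2 and 3 and 3312 CPM with rotenone. The rotenone value lay above every DMSO library for 42 of the 50 genes, against 41.5% of all genes tested. It lay below every DMSO library for 2, Cenpf and Mki67, against 44.7% of all genes tested. Most rises were modest: 6 genes rose at least 2-fold, against 5.53% of all genes tested, 19 between 1.5-fold and 2-fold, and 13 by less than 1.5-fold. In bulk RNA, more dividing cells and more mitotic RNA per cell cannot be told apart.

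**Figure D1:**
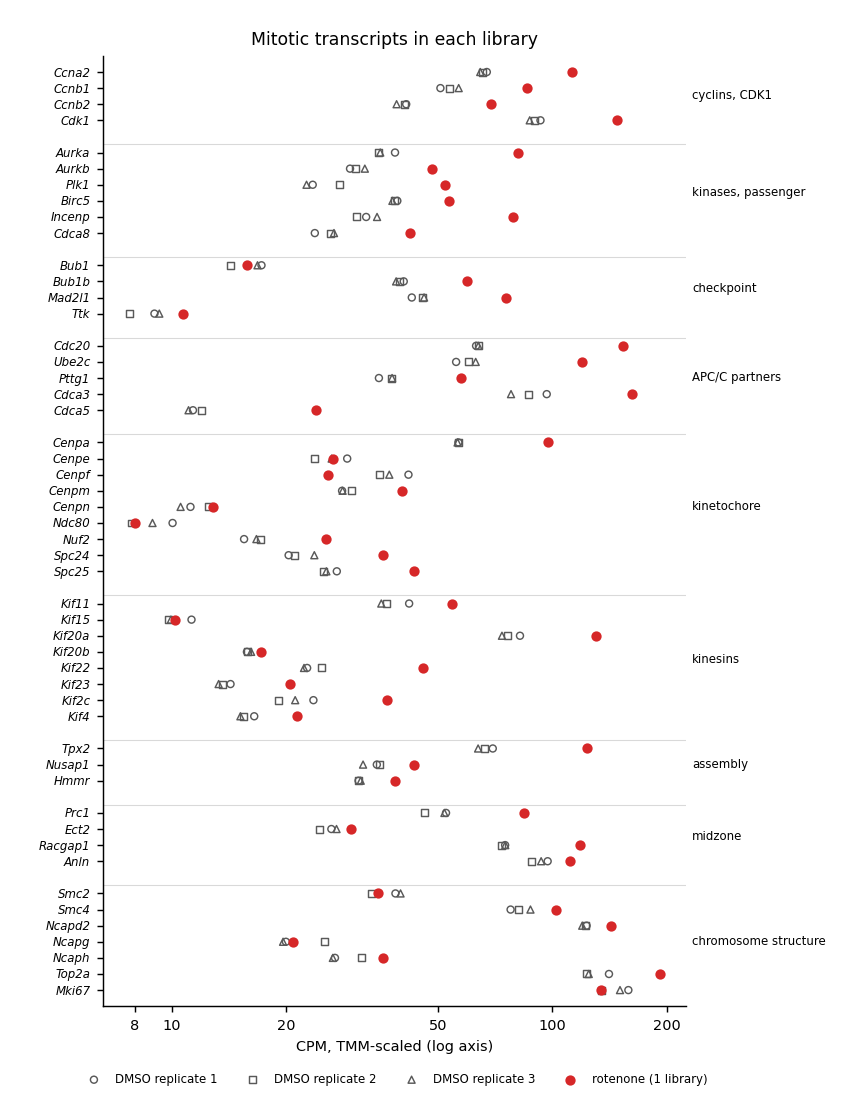
Level of each of the 50 mitotic genes in CPM (log axis), in rows grouped by role. Open symbols are the 3 DMSO libraries and the filled circle is the 1 rotenone library, which lies to the right of all DMSO symbols for 42 genes and to the left of all of them for Cenpf and Mki67.

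The spread behind these tests comes from the DMSO libraries alone, which agreed closely on these genes. The coefficient of variation over the 3 DMSO libraries had a median of 5.51% over the 50 genes, from 0.275% for Cenpa to 14.4% for Ncapg, beside a median of 7.08% over all genes tested. DMSO replicate 1 was the highest of the 3 for 25 genes, replicate 2 for 9 and replicate 3 for 16. How much rotenone cultures vary was not measured. With a coefficient of variation of 20% assumed for every gene, 9 of the 50 rose and 0 fell, against 9.57% and 14.0% of all genes tested, together 23.6%. Those 9 were Aurka, Plk1, Incenp, Cdc20, Ube2c, Cdca3, Cdca5, Kif22 and Tpx2. At an unadjusted p under 0.05 that edgeR likelihood ratio test gave 23 of the 50 higher and 0 lower, against 15.2% and 19.5% of all genes tested, while the quasi-likelihood test and DESeq2 each called 1 lower.

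Scaling also bears on the smaller changes. With library size alone, the median of all genes moved from -0.04 to -0.16, 31 of the 50 genes rose and 2 fell, Cenpf and Mki67. Calls among all genes were 49.1% upward with TMM scaling and 38.6% upward with library size alone (22.1% of genes higher and 35.0% lower, together 57.1%).

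**Figure D2:**
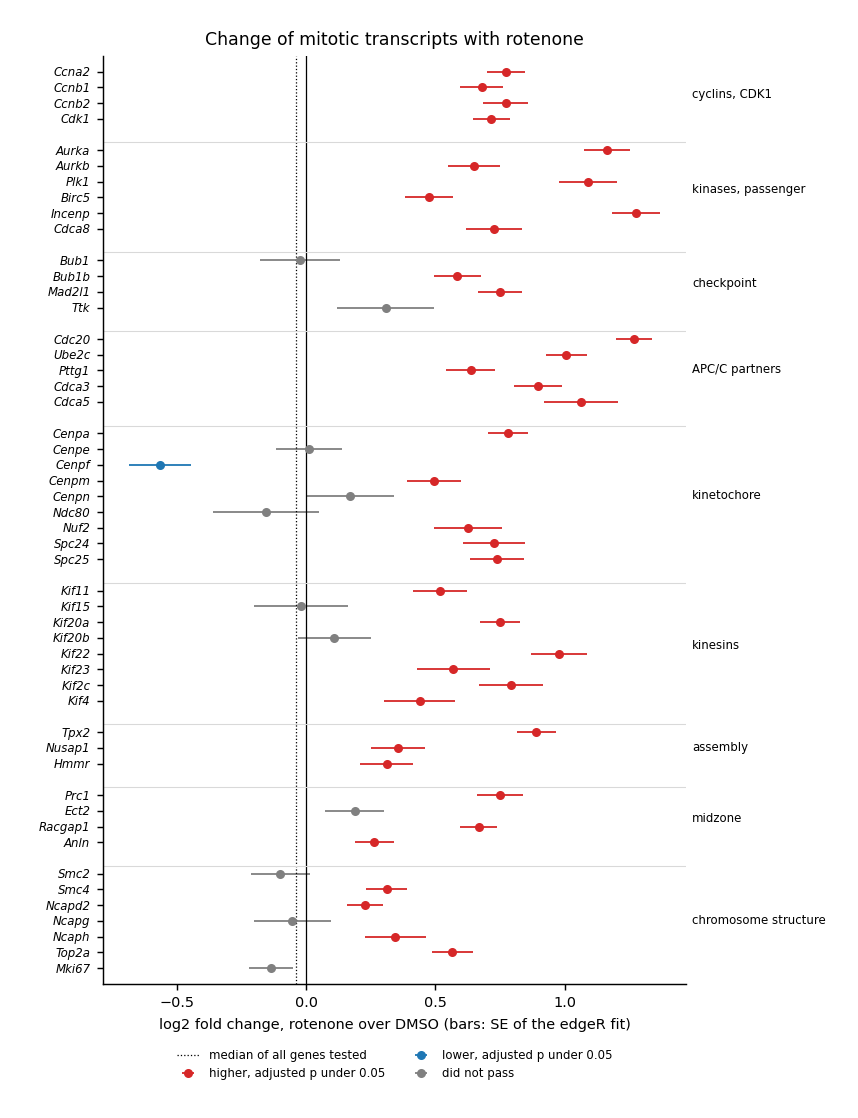
Log2 fold change of each mitotic gene, rotenone over DMSO, with its standard error from the edgeR fit. Red points rose (38), the blue point, Cenpf, fell, and grey points (11) did not pass; the dotted line is the median of all genes tested, -0.04.

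Many mitotic promoters share a pair of short elements. The cell cycle genes homology region, CHR, is bound by the MuvB core of the DREAM complex in resting cells and with B-MYB and FOXM1 in dividing cells. CCAAT boxes are bound by NF-Y. Promoter windows of 300 bases, from 250 before to 50 after the start of transcription, were found in the RefSeq table (GRCm38.p6) for 43 of the 50 genes. CHR was searched as TTTGAA or TTTAAA, the CCAAT box as CCAAT, and E2F motifs as TTTCCCGC, TTTCGCGC, TTTGCCGC or TTTGGCGC, on both strands. TTTAAA reads the same on both strands, matches may overlap, and a window was counted once for each motif. A CHR match was present in 83.7% of the 43 windows, against 19.5% of 11418 windows of genes tested and 27.8% of all 27025 windows. CCAAT was present in 72.1%, against 39.3% and 37.9%. Both were present in 67.4%, against 8.22% and 10.9%, and an E2F match in 11.6%, against 4.07% and 2.32%. Windows of the 31 genes that rose held a CHR match in 80.6% and those of the other 12 in 91.7%. A match is a description of the letters and was not tested for binding.

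**Figure D3:**
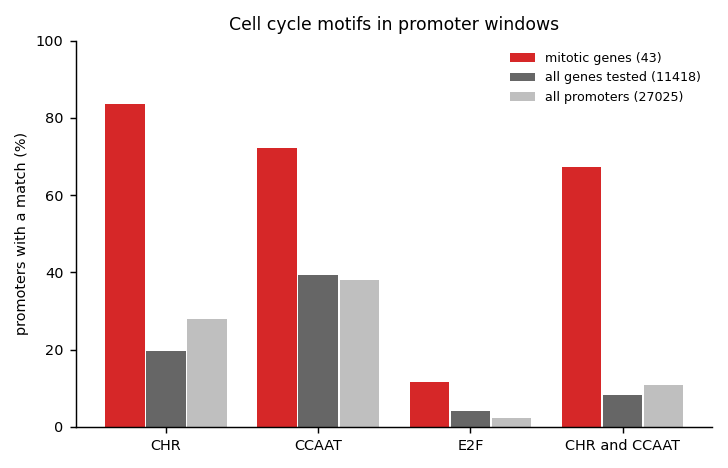
Share of promoter windows (in %) with a match to each motif, for 43 mitotic genes (red), 11418 genes tested (dark grey) and all 27025 windows (light grey). CHR matches reach 83.7% in mitotic genes and 19.5% in genes tested.

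The 150 bases before the start are shown for the 4 genes with the highest mean CPM over all 4 libraries, rotenone included, among those with both motifs, Top2a, Mki67, Ncapd2 and Cdca3. Cdc20, which had the largest rise but 1, and Cenpf, the gene that fell, were added after their values were seen. Starts are those of RefSeq and can differ from the gene positions given below, which are from GENCODE M21. The GENCODE gene of Cdca3 begins at 124829547, so its whole stretch lies inside that gene. On the minus strand, the GENCODE gene of Ncapd2 reaches 125191701 and that of Cdc20 118437352, so their stretches lie partly inside the gene. Capitals mark CHR and CCAAT letters in either orientation.
Top2a (chr11:99024190-99024339, minus strand): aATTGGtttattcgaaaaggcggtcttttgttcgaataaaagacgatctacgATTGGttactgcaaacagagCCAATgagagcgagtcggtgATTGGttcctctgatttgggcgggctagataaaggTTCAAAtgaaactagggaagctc
Mki67 (chr7:135716380-135716529, minus strand): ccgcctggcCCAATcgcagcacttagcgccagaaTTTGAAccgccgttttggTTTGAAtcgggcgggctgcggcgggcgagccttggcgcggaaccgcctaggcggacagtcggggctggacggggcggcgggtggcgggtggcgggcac
Ncapd2 (chr6:125191587-125191736, minus strand): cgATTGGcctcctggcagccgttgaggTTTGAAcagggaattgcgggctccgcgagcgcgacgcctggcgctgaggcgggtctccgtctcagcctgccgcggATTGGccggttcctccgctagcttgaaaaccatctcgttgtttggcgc
Cdca3 (chr6:124830026-124830175, plus strand): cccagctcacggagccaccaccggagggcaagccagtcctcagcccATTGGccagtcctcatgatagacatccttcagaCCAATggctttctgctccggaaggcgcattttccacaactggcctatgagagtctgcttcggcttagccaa
Cdc20 (chr4:118437344-118437493, minus strand): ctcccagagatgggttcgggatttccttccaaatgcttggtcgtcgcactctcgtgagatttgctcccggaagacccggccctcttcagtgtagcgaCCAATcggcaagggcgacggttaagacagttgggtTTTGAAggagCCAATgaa
Cenpf (chr1:189688087-189688236, minus strand): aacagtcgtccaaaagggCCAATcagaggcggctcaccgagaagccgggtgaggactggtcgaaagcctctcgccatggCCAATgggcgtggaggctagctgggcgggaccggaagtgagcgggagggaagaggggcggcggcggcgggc
In Cdc20 the CHR letters begin 18 bases before the start and lie between CCAAT boxes at 53 and 8 bases before it. In Top2a the CHR nearest the start begins 23 bases before it, downstream of 4 CCAAT boxes in the stretch shown. Mki67, which did not rise, carries 2 CHR matches in its stretch. For Cdca3 and Cenpf no CHR lies in the stretch shown. The Cdca3 match begins 31 bases after the start, and those of Cenpf begin 154 bases before it and 3 bases after it.

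All 4 genes for the mitotic cyclins and their kinase rose, with a median log2 fold change of 0.74 and a narrow range of 0.68 to 0.77. Cdk1, the kinase that drives entry into mitosis, stood at 93.0, 89.5 and 87.2 CPM in DMSO replicates 1, 2 and 3 and 148 CPM with rotenone. It rose by 0.72 ± 0.07 on the log2 scale (± SE; adjusted p = 8.2e-08). Ccna2, cyclin A2, which acts from S phase into early mitosis, had 67.2, 65.5 and 64.6 CPM against 112 CPM, a rise of 0.77 ± 0.07 (adjusted p = 4.2e-08). Ccnb1, the main mitotic cyclin, had 50.8, 53.6 and 56.7 CPM against 85.9 CPM. Ccnb2, its relative, had 41.3, 41.0 and 39.0 CPM against 69.0 CPM. All 4 lay above every DMSO library. The largest gap between DMSO libraries among them, 50.8 to 56.7 CPM for Ccnb1, was smaller than its distance to the rotenone value.

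Aurora and Polo kinases and the chromosomal passenger complex rose in all 6 cases, with a median of 0.91. Aurka, the kinase of centrosomes and spindle poles, stood at 38.6, 35.0 and 35.3 CPM in DMSO replicates 1, 2 and 3 and 81.3 CPM with rotenone and rose by 1.16 ± 0.09 (adjusted p = 2.6e-09). Plk1, the Polo kinase of mitotic entry and centrosome maturation, had 23.5, 27.5 and 22.6 CPM against 52.3 CPM and rose by 1.09 ± 0.11. Both more than doubled. The chromosomal passenger complex corrects faulty attachments and later acts in cytokinesis. Incenp, its scaffold (chromosome 19, 9872296 to 9899551, GRCm38), had 32.4, 30.6 and 34.6 CPM against 78.8 CPM and rose by 1.28 ± 0.09 (adjusted p = 1.2e-09), the largest rise of the 50 genes. Its kinase subunit Aurkb had 29.4, 30.4 and 32.2 CPM against 48.1 CPM and rose by 0.65 ± 0.10. Borealin, Cdca8, had 23.8, 26.2 and 26.7 CPM against 42.3 CPM and rose by 0.73 ± 0.11. Survivin, Birc5, had 39.1, 38.5 and 38.0 CPM against 53.5 CPM and rose by 0.47 ± 0.09, the smallest value of the 6.

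Of 4 spindle checkpoint genes, 2 rose and 2 did not pass, with a median of 0.45. Mad2l1, which encodes the MAD2 protein of the inhibitory checkpoint complex, had 42.7, 45.6 and 46.0 CPM against 75.3 CPM and rose by 0.75 ± 0.09 (adjusted p = 5.3e-07). Bub1b, the BubR1 subunit of the same complex, had 40.7, 39.6 and 38.9 CPM against 59.6 CPM and rose by 0.58 ± 0.09. The kinases that start the signal at the kinetochore did not pass. Bub1 had 17.2, 14.3 and 16.8 CPM against 15.8 CPM, within the DMSO range (log2 fold change -0.03 ± 0.15, adjusted p = 0.9). Ttk, the MPS1 kinase, had 9.02, 7.75 and 9.28 CPM against 10.7 CPM, above every DMSO library, with 0.31 ± 0.19 (adjusted p = 0.17).

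The genes that work with or are destroyed by the anaphase-promoting complex all rose, 5 of 5, with the highest median of the role groups, 1.01. Cdc20, the activator of that complex and the target of the checkpoint (chromosome 4, 118432901 to 118437352, GRCm38), had 63.0, 63.8 and 63.9 CPM against 153 CPM. It rose by 1.27 ± 0.07 (adjusted p = 2.1e-11), from 63.6 ± 0.494 CPM (SD, n = 3), which is 2.41-fold. Ube2c, the ubiquitin-conjugating enzyme of the complex, had 55.9, 60.2 and 62.9 CPM against 119.8 CPM and rose by 1.01 ± 0.08. Securin, Pttg1, which holds separase inactive until anaphase, had 35.0, 37.9 and 37.9 CPM against 57.5 CPM and rose by 0.64 ± 0.10. Cdca5, sororin, which protects cohesin, had 11.4, 12.0 and 11.1 CPM against 24.0 CPM and rose by 1.06 ± 0.14. Cdca3, which promotes mitotic entry through loss of WEE1, had 96.6, 86.7 and 77.8 CPM against 162 CPM and rose by 0.90 ± 0.09. DMSO libraries differed more for Cdca3 than for the rest of the group, and all lay below the rotenone value. Exons of Ube2c overlap those of Tnnc2 on the other strand over 22.8% of their length, and whether counting used strand was not stated in the labels. In all, exons of 10 of the 50 genes overlap another gene on the other strand, Kif4 over 15.1% of its exon bases, Ncapg over 13.4%, Ccna2 over 12.5% and Prc1 over 11.1%. Reads of such partners cannot be told apart without strand.

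Among the 9 centromere and kinetochore genes of the 50, Cenpf alone fell, while of all genes tested 27.6% rose and 28.5% fell. Of these 9, 5 rose, 1 fell and 3 did not pass, with a median of 0.50. Kinetochore genes outside the 50 moved in both directions. Cenpa, the histone variant that marks centromeres, had 56.6, 56.6 and 56.3 CPM against 97.2 CPM and rose by 0.78 ± 0.08 (adjusted p = 6.4e-08). Cenpm, of the inner kinetochore, had 28.0, 29.7 and 28.1 CPM against 40.4 CPM and rose by 0.50 ± 0.10. Cenpn, which recognizes centromeric nucleosomes, had 11.2, 12.5 and 10.6 CPM against 12.9 CPM (0.17 ± 0.17, adjusted p = 0.41). Of the large outer proteins, neither rose. Cenpf, a corona protein that binds microtubules and is used as a proliferation marker (chromosome 1, 189640606 to 189688086, GRCm38), had 41.9, 35.1 and 37.3 CPM against 25.8 CPM. It fell by 0.56 ± 0.12 on the log2 scale (adjusted p = 0.00055), from 38.1 ± 3.46 CPM (SD, n = 3), and every DMSO library was higher. The call was lost with the assumed 20% coefficient of variation. Cenpe, the kinesin that moves chromosomes to the spindle equator, had 28.9, 23.7 and 26.3 CPM against 26.6 CPM (0.01 ± 0.13, adjusted p = 0.94).

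Within the NDC80 complex, the main microtubule coupler, 3 of the 4 subunit genes rose. Spc24 had 20.3, 21.01 and 23.7 CPM against 35.8 CPM and rose by 0.73 ± 0.12. Spc25, its partner at the kinetochore end, had 27.1, 25.1 and 25.5 CPM against 43.2 CPM and rose by 0.74 ± 0.10. Nuf2, at the microtubule end, had 15.5, 17.1 and 16.7 CPM against 25.4 CPM and rose by 0.63 ± 0.13. Its partner Ndc80 had 10.1, 7.86 and 8.91 CPM against 8.03 CPM, inside the DMSO range (-0.16 ± 0.20, adjusted p = 0.53). Ndc80 was the gene with the fewest counts in the rotenone library, 163, and its standard error was the largest of the 50.

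Of 8 mitotic kinesins, 6 rose and 2 did not pass, with a median of 0.54. Kif22, a chromokinesin that pushes chromosome arms outward, had 22.7, 24.8 and 22.3 CPM against 45.8 CPM and rose most, by 0.98 ± 0.11 (adjusted p = 3e-07). Kif2c, the microtubule depolymerase MCAK, had 23.6, 19.1 and 21.1 CPM against 36.9 CPM and rose by 0.79 ± 0.12. Kif20a, which carries the passenger complex to the midzone, had 82.2, 76.2 and 73.7 CPM against 130.1 CPM and rose by 0.75 ± 0.08. Exons of Kif20a overlap those of Cdc23 on the other strand over 29.3% of their length, and Cdc23 had 93.9, 92.2 and 95.1 CPM against 109 CPM. Kif23, the motor of centralspindlin, had 14.3, 13.6 and 13.3 CPM against 20.4 CPM and rose by 0.57 ± 0.14. Kif11, the motor that separates spindle poles, had 42.0, 36.7 and 35.5 CPM against 54.6 CPM and rose by 0.52 ± 0.10. Kif4, which sets midzone length, had 16.5, 15.4 and 15.2 CPM against 21.3 CPM and rose by 0.44 ± 0.14 (adjusted p = 0.01), a call lost with library size scaling. Kif15, which backs up Kif11 in holding spindle poles apart, did not differ beyond the DMSO spread, at 11.3, 9.79 and 9.96 CPM against 10.2 CPM (-0.02 ± 0.18, adjusted p = 0.93). Kif20b, a kinesin of late cytokinesis, had 15.8, 15.8 and 16.2 CPM against 17.1 CPM (0.11 ± 0.14, adjusted p = 0.53).

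All 3 spindle assembly factors rose, with a median of 0.35. Tpx2, which activates Aurora A on microtubules, had 69.7, 66.2 and 63.8 CPM against 124 CPM and rose by 0.89 ± 0.07 (adjusted p = 8e-09). Nusap1, a microtubule-bundling protein, had 34.6, 35.2 and 31.8 CPM against 43.4 CPM and rose by 0.35 ± 0.10. Hmmr, a spindle pole protein also known as RHAMM, had 31.0, 30.9 and 31.4 CPM against 38.6 CPM and rose by 0.31 ± 0.10 (adjusted p = 0.014). The calls for Nusap1 and Hmmr were lost with library size scaling. Exons of Nusap1 overlap those of Oip5 on the other strand over 4.24% of their length, and Oip5 had 16.9, 18.3 and 18.6 CPM against 9.76 CPM.

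Of 4 genes of the midzone and cytokinesis, 3 rose and 1 did not pass, with a median of 0.47. Prc1, which bundles antiparallel microtubules, had 52.5, 46.0 and 52.0 CPM against 84.4 CPM and rose by 0.75 ± 0.09 (adjusted p = 7.8e-07). Racgap1, the partner of Kif23 in centralspindlin, had 75.1, 73.4 and 75.2 CPM against 118 CPM and rose by 0.67 ± 0.07 (adjusted p = 2.1e-07). Anln, the contractile ring scaffold anillin, had 97.1, 88.1 and 93.4 CPM against 112 CPM and rose by 0.26 ± 0.08, a call lost with library size scaling. Ect2, the exchange factor that activates RhoA at the division plane, had 26.3, 24.4 and 27.1 CPM against 29.5 CPM (0.19 ± 0.12, adjusted p = 0.18).

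Genes of mitotic chromosome structure gave the lowest median, 0.23, with 4 of 7 higher and 3 not passing. Top2a, which untangles sister DNA, had 141, 123 and 124 CPM against 191 CPM and rose by 0.57 ± 0.08 (adjusted p = 5.1e-06). Of the core condensin subunits, Smc4 had 77.6, 81.3 and 87.5 CPM against 102 CPM and rose by 0.31 ± 0.08, while Smc2 had 38.7, 33.5 and 39.9 CPM against 34.8 CPM (-0.10 ± 0.11, adjusted p = 0.47). Smc2 thus lay inside its DMSO range and Smc4 outside. The other subunits are those of condensin I. Ncapd2 had 123, 122 and 119.7 CPM against 142 CPM and rose by 0.23 ± 0.07, and Ncaph had 26.9, 31.5 and 26.5 CPM against 35.9 CPM and rose by 0.34 ± 0.12 (adjusted p = 0.019). Ncapg had 20.0, 25.2 and 19.6 CPM against 20.8 CPM (-0.05 ± 0.15, adjusted p = 0.77). The calls for Smc4, Ncapd2 and Ncaph were lost with library size scaling, and that for Ncaph also at an adjusted p under 0.01 and with the length correction described below.

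Mki67, which encodes the Ki-67 protein that coats mitotic chromosomes and is the standard proliferation marker (chromosome 7, 135689784 to 135716361, GRCm38), did not pass the test. It had 158, 135 and 150.4 CPM in DMSO replicates 1, 2 and 3 and 134 CPM with rotenone, from 148 ± 12.1 CPM (SD, n = 3). Its log2 fold change was -0.14 ± 0.08 (adjusted p = 0.17), and the rotenone value was marginally below DMSO replicate 2, the lowest DMSO library. Mki67 passed as lower without DMSO replicate 2 (edgeR adjusted p = 0.041) and with library size scaling (edgeR adjusted p = 0.013), and was at 0.09 after the length correction.

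Levels can be compared between genes only per transcript length, here as CPM per kilobase of the longest annotated transcript (GENCODE M21), which need not be the one expressed. On that scale Cdca3 at 44.0 and Cdc20 at 35.5 were the highest in DMSO. Next came Ube2c at 27.2, Ccnb2 at 26.4 and Ncapd2 at 26.2. Kif15 at 2.13 and Ndc80 at 2.33 were the lowest. With rotenone Cdc20 reached 85.4 and Cdca3 82.1, so the first 2 places changed order.

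Log2 fold changes were lower for longer mitotic transcripts. Across the 50 genes, Spearman's rho between log2 fold change and transcript length was -0.54, and across 14216 tested genes with a length it was -0.15. The genes share their libraries and are not independent, so no p is given. The median length was 3423.5 bases for the 38 genes that rose and 4472 for the other 12. Cenpf at 11130 bases, Mki67 at 10061 and Cenpe at 7910 were the 3 longest, and Mad2l1, at 7557 the next, rose. In the rotenone library as a whole, the median log2 fold change ran from 0.24 in the shortest of 10 length bins to -0.27 in the longest, while single DMSO libraries lay between -0.03 and 0.04 of the others in every bin. After centring the rotenone ratio within 10 bins of length, 37 of the 50 genes rose and 1 fell, with a median of 0.57, against 26.9% and 28.0% of all genes, together 54.9%. Cenpf kept its fall, at -0.34.

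**Figure D4:**
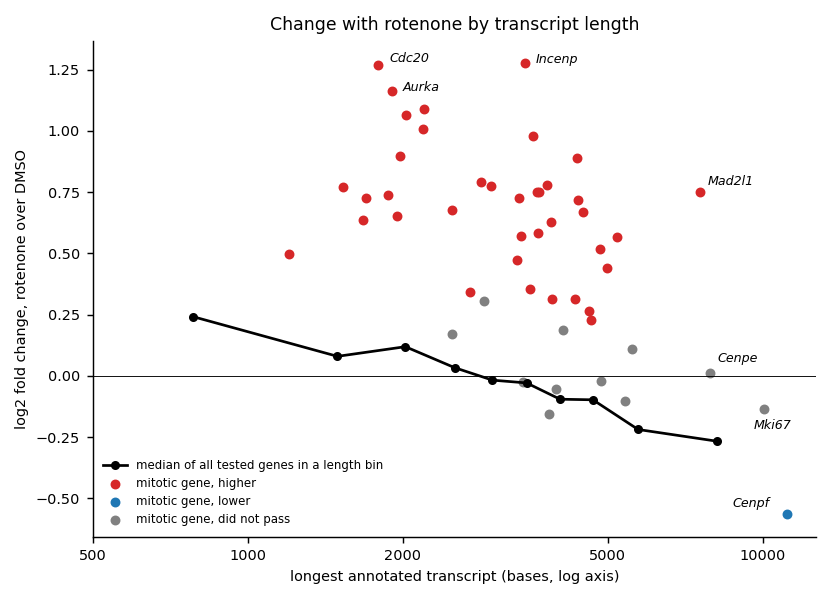
Log2 fold change of the 50 mitotic genes against the length of the longest annotated transcript (log axis). The black line joins the medians of all tested genes in 10 bins of length, from 0.24 to -0.27, and most mitotic genes lie above it, with Cenpf and Ndc80 below.

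Mitotic genes outside the 50 moved in both directions. Here and for the lists that follow, the shares of all genes tested were 27.6% higher and 28.5% lower. With the assumed 20% spread they were 9.57% and 14.0%. Of 76 others, 38 rose, 13 fell and 25 did not pass, with a median of 0.32 (13 and 1 with the assumed 20% spread). The largest rises were those of Troap, a spindle protein also called tastin, from 17.3 ± 1.07 CPM (SD, n = 3) to 49.2 CPM (1.51 ± 0.11), Ska1, which helps kinetochores hold microtubule ends (1.40 ± 0.21), and Gtse1, a microtubule-binding regulator of the spindle (1.03 ± 0.13). Those that fell most were Kif24, a kinesin of centrioles (-1.17 ± 0.24), Cep55, which acts in abscission (-0.91 ± 0.15), and Oip5, which helps load CENP-A (-0.88 ± 0.16). Of 25 genes of the anaphase-promoting complex core and of cohesin, 11 rose and 4 fell, with a median of 0.11 (1 and 0 with the assumed 20% spread, 7 and 7 with library size scaling, where the median turned to -0.01). Ube2s, the enzyme that extends ubiquitin chains for the complex, had 121, 128 and 135 CPM against 282 CPM (1.14 ± 0.07, adjusted p = 9.4e-11). Anapc15 (0.47 ± 0.14) and Anapc7 (0.45 ± 0.09), subunits of the complex, rose less, and Anapc4, another, fell (-0.48 ± 0.11). The cohesin subunit gene Stag2 (-0.74 ± 0.08) and Wapl, the cohesin release factor (-0.62 ± 0.09), fell.

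Among 22 genes for transcription factors and cofactors of mitotic genes, 10 rose and 5 fell, with a median of 0.26 (2 and 0 with the assumed 20% spread, 9 and 2 with DESeq2). Foxm1, the activator of late cell cycle promoters, had 38.9, 38.2 and 43.2 CPM in DMSO replicates 1, 2 and 3 and 92.3 CPM with rotenone and rose by 1.20 ± 0.09 (adjusted p = 1.3e-09). Mybl2, which encodes B-MYB, had 6.79, 7.34 and 6.96 CPM against 9.51 CPM (0.44 ± 0.20, adjusted p = 0.065) and did not pass. Of the genes of the MuvB core, all but Lin9 rose by edgeR. Lin37 rose by 1.14 ± 0.13, Lin52 by 0.79 ± 0.12, Lin54 by 0.55 ± 0.15 and Rbbp4 by 0.28 ± 0.06, while Lin9 fell (-0.30 ± 0.11, adjusted p = 0.031). The call for Lin9 was lost with DESeq2 and with the assumed 20% spread, where Lin37 alone of these genes passed. None of the 3 NF-Y genes was called higher. Nfya (0.12 ± 0.10) and Nfyb (-0.33 ± 0.15) did not pass. Nfyc fell (-0.25 ± 0.10), a call lost with the assumed 20% spread. Lin9, Lin54, Rbbp4 and the NF-Y genes are named after their values were seen. Rbl2, the pocket protein p130 of the repressive DREAM complex, had 53.5, 53.8 and 52.0 CPM against 30.0 CPM and gave -0.82 ± 0.10 (adjusted p = 8.9e-07). Tfdp2 (-0.56 ± 0.09) and E2f3 (-0.43 ± 0.15), of the E2F family and its partners, fell, the call for E2f3 being lost without DMSO replicate 1 and with DESeq2.

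Inhibitors of cyclin-dependent kinases were measured in 7 genes, of which 1 rose and 2 fell. Both falls passed with the assumed spread of 20% too. Beside the counts of this list and of the G1 list below, 27.6% of all genes tested rose and 28.5% fell. With the assumed spread these shares were 9.57% and 14.0%, and the lists were not tested against them. Cdkn1c, the inhibitor p57, had 47.9, 47.2 and 52.4 CPM in DMSO replicates 1, 2 and 3 and 5.57 CPM with rotenone. Its log2 fold change was -3.14 ± 0.14 (adjusted p = 1.7e-12), and the groups lay far apart. Cdkn1a, the inhibitor p21, had 352, 355 and 373 CPM against 182 CPM (-0.98 ± 0.07, adjusted p = 1.1e-09). Cdkn2a, the 1 that rose, gave 0.33 ± 0.07, a call lost with the length correction. Of 11 genes for cyclins and kinases of G1, 3 rose and 4 fell, with a median of -0.04 (1 and 1 with the assumed 20% spread). Ccnd1, cyclin D1, had 8.78, 9.35 and 9.32 CPM against 17.1 CPM and rose by 0.90 ± 0.16 (adjusted p = 9.9e-05). Cdc25a, a phosphatase that activates these kinases, rose by 0.58 ± 0.13 and Cdk4 by 0.26 ± 0.07, the call for Cdk4 being lost with the length correction and with library size scaling. Cdk7, of the kinase that activates other cyclin-dependent kinases (-0.94 ± 0.11), Ccne2, cyclin E2 (-0.88 ± 0.12), and Cdk6 (-0.68 ± 0.18) were among the 4 that fell.

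**Figure D5:**
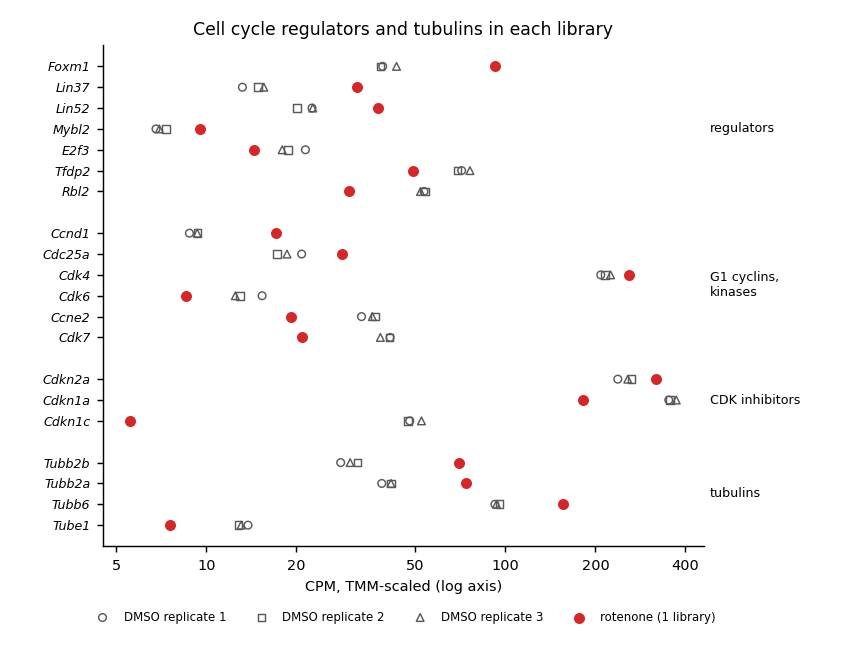
Level in CPM (log axis) of the named regulators, G1 cyclins and kinases, inhibitors and tubulins in each library. Lin9, Lin54, Rbbp4 and the NF-Y genes are not shown. Open symbols are DMSO libraries and the filled circle is the rotenone library, at 92.3 CPM for Foxm1 and 5.57 CPM for Cdkn1c.

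Genes of the preceding S phase were measured too. Of 40 DNA replication genes, 15 rose, 4 fell and 21 did not pass, with a median of 0.16 (1 and 0 with the assumed 20% spread, 15 and 1 with DESeq2). The difference between this list and the mitotic genes was not tested. Mcm2, of the replicative helicase, rose most, with 166, 187 and 190.3 CPM against 426 CPM (1.24 ± 0.07, adjusted p = 6.5e-11). Tyms, thymidylate synthase (0.77 ± 0.09), and Rrm2, a ribonucleotide reductase subunit (0.75 ± 0.08), followed. Dtl, of a ubiquitin ligase of S phase (-0.62 ± 0.09), Pola2, of DNA polymerase alpha (-0.38 ± 0.13), and Gmnn, the licensing inhibitor geminin (-0.23 ± 0.10), fell. The call for Gmnn was lost when any 1 DMSO library was left out, and those for Gmnn and Pola2 with DESeq2. Of 15 tested tubulin genes, 7 rose and 1 fell, with a median of 0.25 (2 and 0 with the assumed 20% spread). They include gamma, delta and epsilon tubulins beside the alpha and beta tubulins that build the spindle. Tubb2b had 28.1, 32.0 and 30.2 CPM against 70.2 CPM (1.22 ± 0.10), Tubb2a 38.6, 41.4 and 41.4 CPM against 73.7 CPM (0.86 ± 0.09) and Tubb6 92.2, 95.5 and 93.4 CPM against 156 CPM (0.74 ± 0.07), while Tube1, epsilon tubulin of centrioles, fell (-0.80 ± 0.18). Tubulin genes are similar in sequence, so the division of reads among them is uncertain.

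Markers of cell types moved beside the mitotic genes. Of 12 preadipocyte and fibroblast markers, 11 were tested, 6 rose and 2 fell, with a median of 0.94. Their summed level was 1346 to 1505 CPM in DMSO and 3732 CPM with rotenone, with the largest share from Col1a1, a collagen (827, 959 and 865 CPM against 2121 CPM). Col3a1, another collagen, had 232, 229 and 226 CPM against 477 CPM, and Acta2, smooth muscle actin, 145, 163 and 155 CPM against 852 CPM. These markers are named after their values were seen. Dlk1, a preadipocyte marker, had 29.4, 34.8 and 32.5 CPM against 83.6 CPM, and Pdgfra, a progenitor marker, 20.7, 19.3 and 18.5 CPM against 9.06 CPM. Thus Dlk1 and Col1a1 rose and Pdgfra fell (-1.11 ± 0.16), and Dpp4 had 0 counts in all libraries but DMSO replicate 1. Of 7 general fat cell markers, 5 fell and 0 rose by edgeR, which DESeq2 also gave. Of those 5, Lipe alone kept its call with the assumed 20% spread. The summed level of the 7 was 9711 to 10630 CPM in DMSO and 8618 CPM with rotenone. Of 7 brown fat markers, 6 were tested, 2 rose and 3 fell, with sums of 991 to 1129 CPM and 869 CPM. The largest share of the fat cell sum came from Fabp4 (5583, 4923 and 4857 CPM against 5306 CPM), which did not pass. Lipe fell most of those 7 (log2 fold change -1.88). Most of the brown fat sum came from Cidea (775, 683 and 653 CPM against 673 CPM), which did not pass. Prdm16 (-2.13), Ucp1 (-1.86) and Ebf2 (-1.605) were the brown fat markers that fell, and Elovl3 (0.60) and Cox8b (0.30) those that rose. With the assumed 20% spread these falls kept their calls and neither rise did. The call for Cox8b was also lost with the length correction. Among macrophage markers, the defining genes Adgre1 and Ptprc had 0 counts in every library. Csf1r and Itgam had 0 with rotenone, and the sum was 3.75 to 4.40 CPM in DMSO and 16.5 CPM with rotenone, nearly all from Cd68. Endothelial markers summed to 2.09 to 2.81 CPM in DMSO and 3.99 CPM with rotenone. Muscle markers summed to 0.208 to 0.338 CPM and 6.65 CPM, all of the latter from Acta1, with Myod1, Myf5 and Pax7 at 0 in every library. The ribosomal RNA precursor Rn45s took 2.51% to 3.17% of DMSO counts and 3.91% of rotenone counts. The part of these in the rise of mitotic transcripts was not tested.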

How the data were processed

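The authors deposited unnormalized read counts for each gene symbol, as whole numbers, from total RNA. Per the submitters' processing notes, TopHat2 and mm10 were used. The counting program, annotation, strand setting and handling of multi-mapped reads were not stated in the labels, and exons of 10 of the 50 genes overlap another gene's on the opposite strand. The series text calls the replicates independent; nothing says they were separate cultures, so p-values reflect only how far these libraries spread, possibly for technical reasons. The deposited counts were scaled by TMM, filtered with filterByExpr and tested with edgeR 4.0.16 (R 4.3.3), rotenone against DMSO, robust quasi-likelihood F test, 2 residual degrees of freedom, adjusted over 14709 genes. The common biological coefficient of variation was 6.9%. The SE of a log2 fold change was taken as its absolute value over the root of the F statistic. An exact permutation of 3 against 1 libraries cannot go below p = 0.25. DMSO libraries correlated at 0.996 pairwise across genes (log2 CPM), which are not independent.

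Alternatives were DESeq2 1.42.0, limma-voom 3.58.1, other scalings and filters, each DMSO library left out, a 20% coefficient of variation, an adjusted p under 0.01, length bins and Rn45s left out. Members, lists and alternatives were chosen with earlier results of these data known. Named genes are all 50 members, plus Foxm1, Mybl2, Cdkn1a and Ccnd1. From each other list, up to 3 genes per direction with the largest changes past the threshold are named, at a mean of at least 1 CPM. Cdc23 and cell type markers were named for overlap or cell identity. Lin9, Lin54, Rbbp4 and the NF-Y genes were added after their values were seen. Scripts were tested on simulated counts.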

Additional observations from a re-analysis of the deposited data

How the results depend on the processing

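The number of mitotic genes that rose, 38, was 31 to 38 under every alternative except the assumed 20% coefficient of variation, which gave 9. The number that fell, 1, became 2 with library size scaling and 0 with the 20% coefficient of variation, and was 1 to 2 when each DMSO library was left out in turn, the second being Mki67 without DMSO replicate 2. With the 20% coefficient of variation 1408 of all genes rose and 2063 fell, against 4054 and 4197. The median log2 fold change of the 50 genes, 0.606, moved to 0.485 with library size scaling.

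Sign changes were seen only for genes that had not passed. With library size scaling Cenpe gave -0.108 and Kif20b -0.012, and with upper-quartile scaling Cenpe gave -0.031. With the length correction Kif15 gave 0.036, Smc2 0.078, Ncapg 0.001 and Mki67 0.090. When each DMSO library was left out in turn, Bub1 ranged from -0.105 to 0.034 (0.007 without replicate 3), Cenpe from -0.056 to 0.093, Kif15 from -0.058 to 0.053 and Ncapg from -0.117 to 0.072. The cause was not tested. No paired analysis was possible because the files of the 3 rotenone replicates hold identical counts, which leaves 1 library. The variability of rotenone cultures remains unmeasured, and counts of 163 to 3885 per gene in that library limit the precision of the lower ones.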
